A study of Mus musculus with 4 samples.

Results

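Solute carriers are the membrane proteins that move amino acids, sugars, nucleosides, ions, metals and metabolites across the plasma membrane and across the membranes of organelles. Members were taken as the probe sets whose single platform gene symbol begins with Slc, a family number, the letter a and a member number. Slc2a1, Slc2a3, Slc4a1, Slc11a1, Slc11a2 and Slc40a1 were left out. This gave 168 of 12422 probe sets and 137 of 8251 genes, from 38 numbered families. Of the symbols, 3 fit the pattern without being carriers, namely the scaffold genes Slc9a3r1 and Slc9a3r2 and the gene Slc4a1ap. They are counted as members and kept in a class of their own.

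The study set 2 mouse cell populations side by side, titled Hemangioblast and hCD4, with 2 single-colour arrays each. Human CD4 on the surface of the cells, all from 1 line of embryonic stem (ES) cells, served as a reporter of Scl, the blood regulator encoded by Tal1. ES cells grown on feeder cells with LIF were differentiated in serum for 2.75 days. Hemangioblasts, which can give rise to blood and to endothelium, were sorted from embryoid bodies by the VEGF receptor Flk-1 and by Scl. Blast colonies were grown from replated embryoid bodies, picked and pooled. Different labels assign the arrays to sorted populations, to colonies or to ES cells, so the groups are called here by their array titles. Both populations carried the same reporter allele, and no other treatment is labelled. No label ties the arrays of a group to separate cultures. The p-values therefore rest on spread between arrays alone, in part borrowed from other probe sets of like intensity. This spread may be technical.

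As background, a solute carrier works either as a uniporter that lets its substrate run down a gradient, or as a cotransporter or exchanger that couples one solute to another. Sodium-coupled carriers draw on the gradient kept up by the sodium pump. Many amino acids enter through heteromeric carriers, in which a light chain of the Slc7 family does the transport and the heavy chain Slc3a2 brings it to the surface. In early embryonic cells, carriers of amino acids, nucleosides and lactate serve fast growth, and in blood cells others serve heme and iron supply, volume control and the uptake of serotonin.

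Scaled intensities are linear values brought to one trimmed mean per array. The log2 change is Hemangioblast minus hCD4 on log2(scaled intensity + 16), which understates the change of dim genes, and adjusted p is that of limma over all 12422 probe sets. A gene with more than 1 probe set is represented by the brightest. Across probe sets, Pearson's r was 0.961 within Hemangioblast, 0.963 within hCD4 and 0.921 to 0.940 between arrays of different groups. Levels of different probe sets are not comparable, and the files give no call of presence. Of 137 member genes, 59 had a mean below the median of all probe sets (194), and 5 had a mean below the added constant of 16 (Slc1a6, Slc5a11, Slc7a1, Slc34a2 and Slc39a3).

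Of 137 solute carrier genes, 0 were higher and 4 were lower on the Hemangioblast arrays at an adjusted p of 0.05 (limma). The 4 that fell were Slc32a1, the vesicular carrier of GABA and glycine, Slc12a7, a potassium-chloride cotransporter, Slc16a1, a lactate and pyruvate carrier, and Slc29a1, an equilibrative nucleoside carrier. Over all genes, 3.43% passed as higher and 1.95% as lower, 5.38% in all, against 2.92% of the solute carriers. At an unadjusted p under 0.05 there were 5 higher and 13 lower of 137 members, beside 795 higher and 715 lower of all 8251 genes. The counts and shares over all genes given here also stand beside those of the classes and lists below. The median log2 change of the members was -0.01, beside 0.02 over all genes, and the members' changes ran from -2.34 for Slc32a1 to 1.12 for Slc16a7. By a rule of size, at least 2-fold in all 4 pairs of a Hemangioblast and an hCD4 array, 0 members were higher and 2 lower (Slc32a1 and Slc12a7), where 2.51% and 0.679% of all genes were. The groups stood clear of each other, with no overlap of their arrays, for 28 members on the higher side and 31 on the lower, 43.1% in all. Over all genes 24.5% stood clear on the higher side and 22% on the lower, 46.6% in all. For 82 members (59.9%) the 95% interval of the change lay within 2-fold in either direction, and over all genes for 65.1%. Without scaling between the arrays, or with 1 prior variance for all intensities in place of a trend, none of the 137 passed. The adjusted p-values of the 4 were then 0.0602 to 0.129 and 0.0839 to 0.174.

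**Figure D1:**
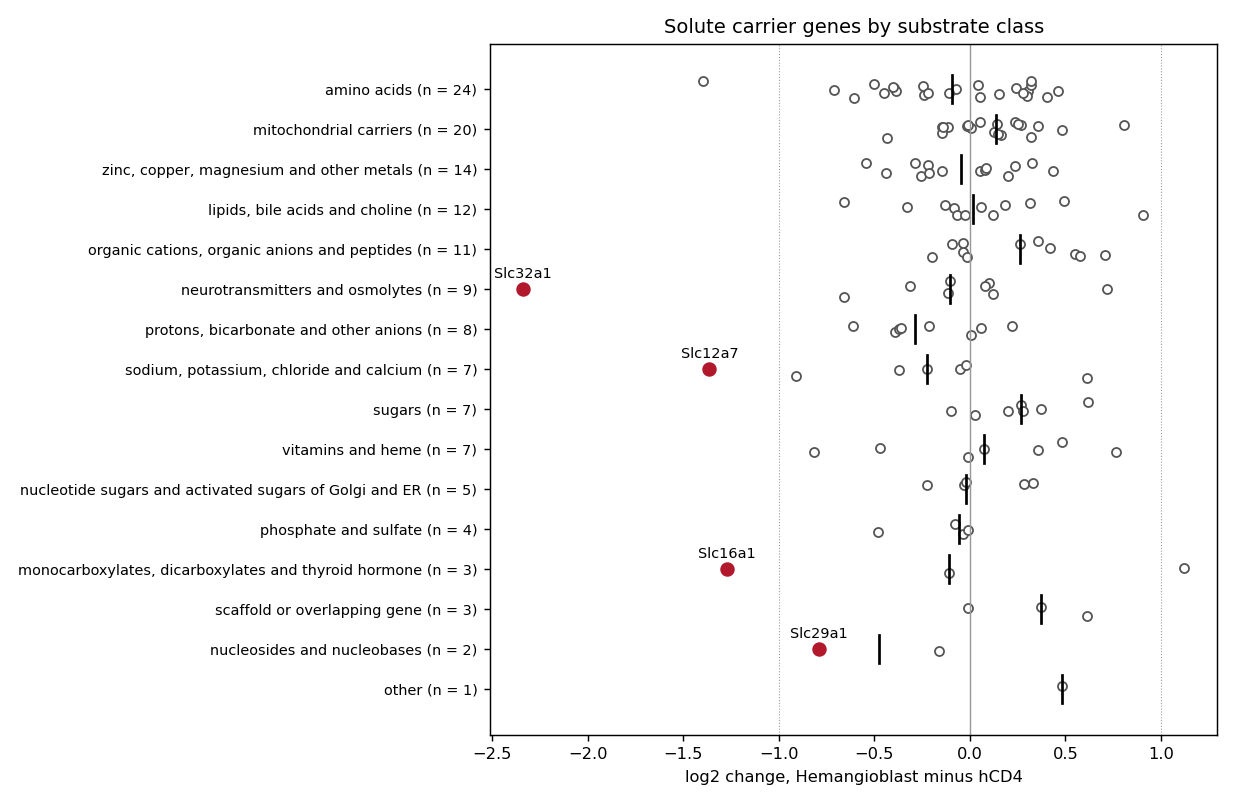
Each circle is 1 of 137 genes, placed by its log2 change (Hemangioblast minus hCD4, horizontal axis) within its substrate class (vertical axis), with a bar at the class median. Filled circles are the 4 genes past an adjusted p of 0.05, all to the left of 0, and the dotted lines mark a 2-fold change.

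The genes that fell are shown with the bases upstream of their start in the RefSeq table (build GRCm38.p6), so that the stretch in front of each can be read. Each line gives the 250 bases before the first start listed, 5′ to 3′ on the gene's strand, with matches to an E-box (CACGTG, the same on both strands) and to a GC box (GGGCGG on either strand) in capitals.
Slc32a1, chr2:158610508-158610757, plus strand: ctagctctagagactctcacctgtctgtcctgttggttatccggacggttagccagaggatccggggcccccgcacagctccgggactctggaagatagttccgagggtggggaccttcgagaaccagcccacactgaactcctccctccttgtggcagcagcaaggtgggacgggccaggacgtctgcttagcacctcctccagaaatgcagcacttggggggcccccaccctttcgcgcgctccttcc
Slc12a7, chr13:73763410-73763659, plus strand: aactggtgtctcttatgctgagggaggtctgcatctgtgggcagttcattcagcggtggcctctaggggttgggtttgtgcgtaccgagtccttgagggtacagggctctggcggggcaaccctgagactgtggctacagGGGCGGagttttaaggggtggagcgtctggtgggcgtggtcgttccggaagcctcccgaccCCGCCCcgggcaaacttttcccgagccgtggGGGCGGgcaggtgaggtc
Slc16a1, chr3:104638414-104638663, plus strand: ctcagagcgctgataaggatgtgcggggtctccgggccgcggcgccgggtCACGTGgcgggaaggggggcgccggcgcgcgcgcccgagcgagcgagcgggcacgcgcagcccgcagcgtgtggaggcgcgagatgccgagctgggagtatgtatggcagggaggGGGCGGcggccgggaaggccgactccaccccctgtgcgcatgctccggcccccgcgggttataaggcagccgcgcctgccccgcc
Slc29a1, chr17:45599619-45599868, minus strand: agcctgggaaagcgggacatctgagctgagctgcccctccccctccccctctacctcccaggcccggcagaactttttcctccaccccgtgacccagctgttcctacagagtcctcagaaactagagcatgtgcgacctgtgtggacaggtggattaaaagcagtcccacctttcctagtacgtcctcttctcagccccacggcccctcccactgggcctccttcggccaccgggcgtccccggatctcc
Slc12a7 has 2 starts listed and Slc29a1 has 8, so the window shown need not be the one in use in these cells. The window of Slc16a1 holds 1 E-box and 1 GC box and that of Slc12a7 3 GC boxes, while those of Slc32a1 and Slc29a1 hold neither motif as defined here. Forms of the E-box other than CACGTG were not searched for. Promoters were found for 113 of 137 members by gene identifier. An E-box stood in 10.6% of these, in 8.43% of the 6573 promoters of genes on the array and in 6.05% of all 27025 promoters. For the GC box the shares were 58.4%, 54.8% and 32.9%, and for a GATA motif (AGATAA on either strand) 8.85%, 6.51% and 10.3%. These matches describe the letters in the window and no binding was measured.

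Slc32a1 loads GABA and glycine into synaptic vesicles of inhibitory neurons. Its scaled intensity was 182 and 76.3 on the Hemangioblast arrays, against 472 and 942 on the hCD4 arrays. The groups did not overlap, although the arrays within each group lay far apart. The log2 change was -2.34 (SE 0.415, adjusted p = 0.0179), the largest fall of the members. Without hCD4 replicate 2, the brighter array, the adjusted p was 0.14. The enzymes that make GABA had low values that overlapped between the groups: Gad2 had a log2 change of 0.26 and Gad1 of -0.08 (adjusted p = 0.853 and 0.959).

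Slc12a7 lets potassium and chloride leave the cell together and takes part in volume control. It stood at 108 and 157 on the Hemangioblast arrays, against 390 and 333 on the hCD4 arrays. Both hCD4 values were more than 2-fold above both Hemangioblast values. The log2 change was -1.36 (SE 0.258, adjusted p = 0.0237). Leaving out Hemangioblast replicate 1 gave an adjusted p of 0.0678, and leaving out an hCD4 array gave 0.162 (replicate 1) or 0.113 (replicate 2), so the call was lost in these 3 cases.

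Slc16a1 carries lactate, pyruvate and ketone bodies together with protons. On the Hemangioblast arrays it was at 147 and 119, against 412 and 285 on the hCD4 arrays. These values did not overlap, and the log2 change was -1.27 (SE 0.265, adjusted p = 0.0352). With any 1 array left out the adjusted p was 0.0518 to 0.215, so the call rests on all 4 arrays. Its relative Slc16a7, a carrier of the same substrates, averaged 45.2 ± 5.39 on the Hemangioblast arrays, against 12.9 ± 10.1 on the hCD4 arrays (SD, n = 2 each; log2 change 1.12, SE 0.384, adjusted p = 0.175). That was the largest positive change of any member, on a dim probe set, and it did not pass. Slc16a8 overlapped between the groups (log2 change -0.11).

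Slc29a1 passes nucleosides in either direction along their gradient and feeds the salvage of nucleotides. It was bright on all arrays, with 971 and 856 on the Hemangioblast arrays, against 1523 and 1655 on the hCD4 arrays. The arrays within a group lay close together, and the log2 change was -0.79 (SE 0.151, 95% interval -1.14 to -0.44, adjusted p = 0.0245). Its second probe set, far dimmer, had 82.4 and 101 on the Hemangioblast arrays, against 91.0 and 88.6 on the hCD4 arrays (log2 change 0.02, SE 0.302). With the probe sets averaged the change was -0.39 and the adjusted p 0.331, and with median scaling the adjusted p was 0.0546. The call was also lost when Hemangioblast replicate 2 was left out (0.0662) and when either hCD4 array was (0.129 for replicate 1, 0.223 for replicate 2). Slc29a2, the other equilibrative nucleoside carrier measured, was at 64.4 and 63.5 on the Hemangioblast arrays, against 89.6 and 59.9 on the hCD4 arrays.

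**Figure D2:**
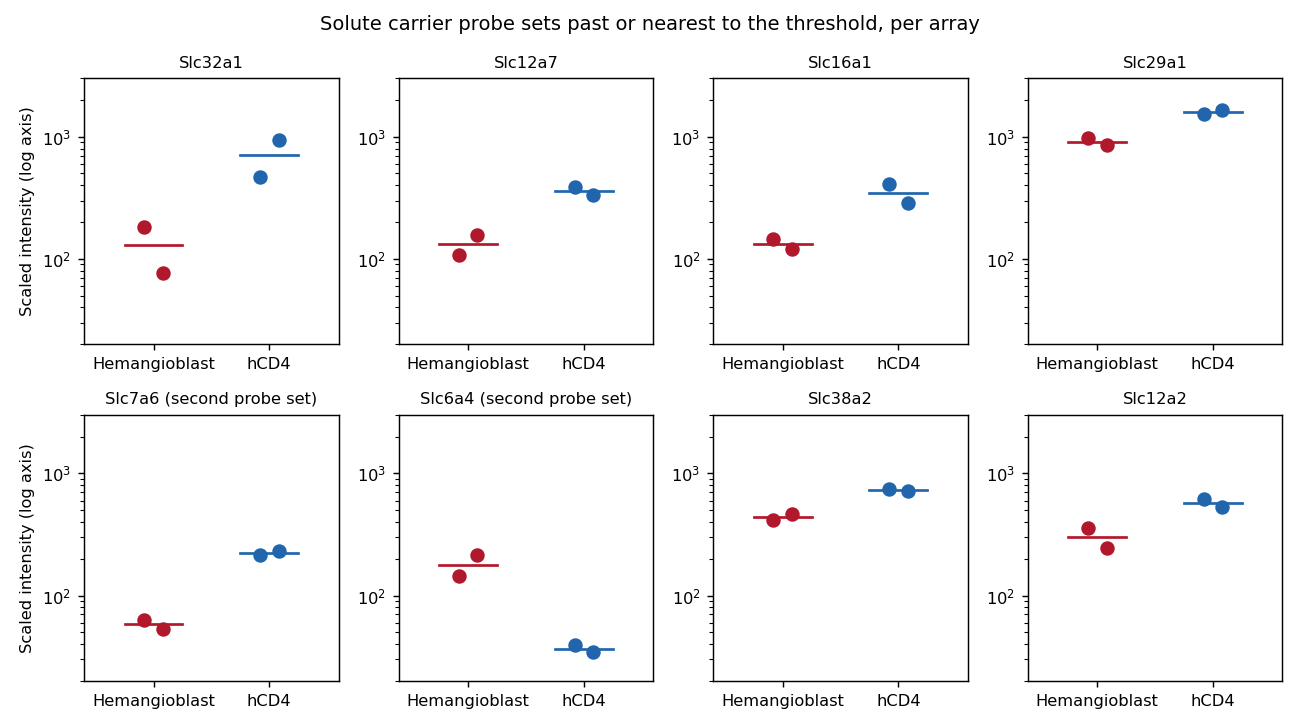
Scaled intensity of 8 probe sets (log axis), with a point per array and a line at the mean of each group, Hemangioblast left and hCD4 right. The top row holds the 4 genes that fell, with no overlap of the groups; the bottom row holds second probe sets of Slc7a6 and Slc6a4, which passed, and the brightest probe sets of Slc38a2 and Slc12a2, which did not pass.

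Markers of several cell types moved with the groups. Over all genes, 3.43% rose and 1.95% fell at the same threshold, the shares to set beside the counts here. In the pluripotency and epiblast list 3 of 10 genes fell and 0 rose, and its summed intensity was 1453 to 1509 on the Hemangioblast arrays, against 2969 to 5327 on the hCD4 arrays. Such sums are led by the brightest probe sets and do not describe a list as a whole. On hCD4 replicate 1, for example, Pou5f1 was at 1526 and Dppa5a at 1397. In the hemangioblast and early mesoderm list 5 of 10 fell and 0 rose, with sums of 3776 to 3972 on the Hemangioblast arrays, against 8518 to 9364 on the hCD4 arrays. Kdr, the gene of Flk-1, fell, at 648 and 570 on the Hemangioblast arrays, against 1625 and 2003 on the hCD4 arrays. Its log2 change was -1.55 (adjusted p = 0.00158). Tal1 stood at 391 and 333 on the Hemangioblast arrays, against 597 and 696 on the hCD4 arrays. It did not pass (-0.81, adjusted p = 0.0513). In the macrophage list 12 of 15 rose and 0 fell, with sums of 12207 to 13533 on the Hemangioblast arrays, against 1768 to 2058 on the hCD4 arrays, where Adgre1, Ptprc, Fcer1g and C1qb averaged below 16. Erythroid genes rose in 6 of 8 cases (37733 to 40329 on the Hemangioblast arrays, 13173 to 14008 on the hCD4 arrays), and megakaryocyte and mast cell genes in 4 of 9 (1826 to 1942, against 540 to 688 on the hCD4 arrays). Of the endothelial genes 1 of 6 rose (3513 to 4145 on the Hemangioblast arrays, 2918 to 3365 on the hCD4 arrays), of the fibroblast feeder genes 1 of 8 (2437 to 2815, against 2021 to 2434 on the hCD4 arrays) and of the endoderm and epithelium genes 0 of 9 (1884 to 2884, against 2446 to 3012 on the hCD4 arrays; 1 at an unadjusted p under 0.05). The part of these cell types in the carriers' changes was not tested. In bulk RNA, fewer cells of a type and less RNA per cell cannot be told apart.

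Amino acid carriers formed the largest class, with 24 genes. Of these 0 passed in either direction, and the median log2 change was -0.09. At an unadjusted p under 0.05 there were 5 of 24, all with lower values on the Hemangioblast arrays. Over all 8251 genes there were 1510, of which 795 were higher and 715 lower. The groups did not overlap for 4 on the higher side and 9 on the lower side, 54.2% of the class, beside 46.6% of all genes. Nearest to the threshold was Slc38a2, a sodium-coupled carrier of small neutral amino acids that is induced by amino acid starvation. It was at 415 and 469 on the Hemangioblast arrays, against 743 and 721 on the hCD4 arrays (log2 change -0.71, SE 0.168, adjusted p = 0.056). Its other 3 probe sets, all dimmer, had log2 changes of 0.24 to 0.39 (SE 0.267 to 0.501), the opposite sign. With the 4 probe sets averaged the change was 0.07.

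The heavy chain Slc3a2 and the light chains that pair with it were measured together. Slc3a2 was at 2611 and 1928 on the Hemangioblast arrays, against 2870 and 3019 on the hCD4 arrays (log2 change -0.39, SE 0.172, adjusted p = 0.316). Slc7a5, the light chain for large neutral amino acids such as leucine, was at 976 and 910 on the Hemangioblast arrays, against 1193 and 1398 on the hCD4 arrays (-0.45, SE 0.155, adjusted p = 0.183). In both genes every Hemangioblast value lay below every hCD4 value, without passing the test.

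Slc7a6 and Slc7a7 are light chains that export cationic amino acids in exchange for neutral ones. The brighter probe set of Slc7a6 was at 152 and 193 on the Hemangioblast arrays, against 235 and 309 on the hCD4 arrays (log2 change -0.61, SE 0.254, adjusted p = 0.282). Its second probe set was at 62.7 and 53.6 on the Hemangioblast arrays, against 216 and 233 on the hCD4 arrays, and passed the threshold (-1.70, SE 0.281, adjusted p = 0.0136). Both probe sets were lower on both Hemangioblast arrays, and with the probe sets averaged Slc7a6 passed (-1.15, adjusted p = 0.0352). Slc7a7 was at 150 and 151 on the Hemangioblast arrays, against 687 and 256 on the hCD4 arrays. Its hCD4 arrays lay far apart, and the log2 change of -1.40 (SE 0.398, adjusted p = 0.105) did not pass. Without hCD4 replicate 1 its change was -0.71 (adjusted p = 0.35), and without hCD4 replicate 2 it was -2.08 (adjusted p = 0.0129). The light chains Slc7a8 (-0.22) and Slc7a11, the cystine-glutamate exchanger (0.28), had adjusted p-values of 0.695 and 0.789.

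Among the carriers of neutral amino acids outside that complex, Slc1a4, for alanine, serine and cysteine, was at 298 and 231 on the Hemangioblast arrays, against 405 and 354 on the hCD4 arrays (log2 change -0.50, adjusted p = 0.3). Slc1a5, the related glutamine carrier, was at 125 and 143 on the Hemangioblast arrays, against 152 and 214 on the hCD4 arrays (-0.40, adjusted p = 0.58). Slc38a4 was bright, at 1145 and 984 on the Hemangioblast arrays, against 1162 and 1363 on the hCD4 arrays (-0.24, adjusted p = 0.552). Slc38a5 ran the other way, at 635 and 753 on the Hemangioblast arrays, against 505 and 600 on the hCD4 arrays (0.32, adjusted p = 0.459). The glycine carrier Slc6a9 overlapped, at 323 and 448 on the Hemangioblast arrays, against 322 and 423 on the hCD4 arrays. Cationic amino acid carriers were dim: Slc7a1 did not exceed 21.8 on any array, and Slc7a2 and Slc7a3 had log2 changes of -0.40 and -0.25 with adjusted p-values of 0.655 and 0.835.

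Carriers of sodium, potassium, chloride and calcium numbered 7, of which Slc12a7 fell and 0 rose. Slc12a2, the cotransporter that brings sodium, potassium and chloride into the cell and so works against Slc12a7, was at 354 and 247 on the Hemangioblast arrays, against 612 and 530 on the hCD4 arrays (log2 change -0.91, SE 0.221, adjusted p = 0.0616). Its values did not overlap either. Slc12a4, another potassium-chloride cotransporter, was at 179 and 191 on the Hemangioblast arrays, against 212 and 225 on the hCD4 arrays (-0.22, adjusted p = 0.741). Slc8a1, the sodium-calcium exchanger best known from heart muscle, was at 350 and 462 on the Hemangioblast arrays, against 241 and 275 on the hCD4 arrays (0.61, SE 0.219, adjusted p = 0.199). Its other 2 probe sets had log2 changes of 0.04 and 0.62. The remaining members, Slc12a1, Slc12a3 and Slc12a5, had overlapping arrays.

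Carriers of protons, bicarbonate and other anions (8 genes) had 0 calls and a median log2 change of -0.29. At an unadjusted p under 0.05 there were also 0. The sodium-bicarbonate cotransporter Slc4a4 had the largest difference, at 68.8 and 74.8 on the Hemangioblast arrays, against 102 and 136 on the hCD4 arrays (-0.61, adjusted p = 0.396). Slc4a2, a chloride-bicarbonate exchanger, and Slc9a8, a sodium-proton exchanger, had changes of 0.06 and 0.00 with overlapping arrays.

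In the neurotransmitter and osmolyte class, Slc32a1 was the gene that fell among 9. Slc6a4, the serotonin carrier, which platelets and mast cells also express, differed between its probe sets. The brighter one was at 196 and 266 on the Hemangioblast arrays, against 127 and 139 on the hCD4 arrays (log2 change 0.72, SE 0.264, adjusted p = 0.212). The dimmer one was at 144 and 214 on the Hemangioblast arrays, against 39.2 and 34.4 on the hCD4 arrays, and passed (1.86, SE 0.328, adjusted p = 0.0175). Both were higher on both Hemangioblast arrays, and with the probe sets averaged Slc6a4 passed as higher (1.29, adjusted p = 0.0402). Beside it, the platelet genes Gp1bb, Gp5 and Gp9 were among the 4 of 9 megakaryocyte and mast cell genes that rose (3.43% of all genes). The platelet gene Pf4 did not pass (0.40, adjusted p = 0.662). Nor did the mast cell genes Cma1 (1.09, adjusted p = 0.0857), Fcer1a (0.64, 0.635), Hdc (0.38, 0.677) and Cpa3 (-0.05, 0.977). The part of these cell types in the change of Slc6a4 was not tested. The taurine carrier Slc6a6 was at 1171 and 1493 on the Hemangioblast arrays, against 1521 and 1786 on the hCD4 arrays (-0.31, adjusted p = 0.446). The creatine carrier Slc6a8 (-0.66, adjusted p = 0.485) and the norepinephrine carrier Slc6a2 (0.08, adjusted p = 0.928) had overlapping arrays.

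Mitochondrial carriers, 20 genes of the Slc25 family, had 0 calls and 1 gene with an unadjusted p under 0.05, and their median log2 change was 0.13. For 16 of them (80%) the 95% interval lay within 2-fold in either direction. The adenine nucleotide translocases, which exchange ADP for ATP across the inner membrane, were bright. Slc25a4 was at 2490 and 1854 on the Hemangioblast arrays, against 2377 and 2385 on the hCD4 arrays, and Slc25a5 at 3218 and 3108 on the Hemangioblast arrays, against 3634 and 3359 on the hCD4 arrays. Their log2 changes were -0.15 and -0.14, with 95% intervals of -0.54 to 0.24 and -0.46 to 0.17. The gene with the smallest p was Slc25a15, the ornithine carrier of the urea cycle, at 491 and 459 on the Hemangioblast arrays, against 623 and 676 on the hCD4 arrays (-0.44, SE 0.167, adjusted p = 0.234). Slc25a39, which supplies mitochondria with glutathione, was at 964 and 934 on the Hemangioblast arrays, against 983 and 1075 on the hCD4 arrays (-0.11, adjusted p = 0.814). The largest change, 0.80 for Slc25a14, came from a dim probe set with values of 19.5 and 33.2 on the Hemangioblast arrays, against 10.7 and 5.43 on the hCD4 arrays (adjusted p = 0.333).

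Metal carriers (14 genes) had 0 calls, 1 unadjusted p under 0.05 and changes between -0.54 and 0.44. The smallest p was that of Slc39a7, which releases zinc from the endoplasmic reticulum and Golgi, at 1007 and 822 on the Hemangioblast arrays, against 1438 and 1239 on the hCD4 arrays (-0.54, SE 0.168, adjusted p = 0.133). The zinc exporter of the plasma membrane, Slc30a1, was at 234 and 238 on the Hemangioblast arrays, against 226 and 128 on the hCD4 arrays (0.44, adjusted p = 0.56). The copper importer Slc31a1 overlapped, at 754 and 591 on the Hemangioblast arrays, against 632 and 653 on the hCD4 arrays. Slc39a4, a zinc importer known from the intestine, had probe sets of opposite sign. The brighter was at 863 and 946 on the Hemangioblast arrays, against 738 and 796 on the hCD4 arrays (0.23, adjusted p = 0.55), and the other at 252 and 418 on the Hemangioblast arrays, against 718 and 656 on the hCD4 arrays (-1.04, adjusted p = 0.0547). No direction can be given for Slc39a4.

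Vitamin and heme carriers (7 genes) had 0 calls. Slc19a1, the reduced folate carrier, was at 274 and 217 on the Hemangioblast arrays, against 386 and 503 on the hCD4 arrays (log2 change -0.81, SE 0.225, adjusted p = 0.0955). Its second probe set was at 280 and 250 on the Hemangioblast arrays, against 251 and 293 on the hCD4 arrays (-0.03). Slc5a6, which takes up biotin and pantothenate, had a change of -0.47 (adjusted p = 0.404), and the ascorbate carriers Slc23a1 and Slc23a2 of 0.76 and 0.36 (adjusted p = 0.413 and 0.407). Slc48a1, which moves heme out of endosomes and lysosomes, was at 245 and 436 on the Hemangioblast arrays, against 188 and 281 on the hCD4 arrays (0.48, adjusted p = 0.54). The proton-coupled folate carrier Slc46a1 had a change of 0.07.

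The sugar carriers left in the set (7 genes) had 0 calls, 0 unadjusted p-values under 0.05 and a median log2 change of 0.26. Slc2a2, Slc2a4, Slc5a1 and Slc5a11 were dim on every array. Slc2a8, an intracellular glucose carrier, was at 406 and 535 on the Hemangioblast arrays, against 509 and 494 on the hCD4 arrays (-0.10). The fructose carrier Slc2a5 was at 238 and 278 on the Hemangioblast arrays, against 223 and 200 on the hCD4 arrays (0.26, adjusted p = 0.674), and Slc5a1, which couples glucose to sodium, had the largest change (0.62, SE 0.532, adjusted p = 0.675). Its direction rested on 1 array, since the change was 1.41 without Hemangioblast replicate 1 and -0.18 without Hemangioblast replicate 2.

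The 12 carriers of lipids, bile acids and choline and the 11 of organic cations, anions and peptides also had 0 calls, with 2 and 0 unadjusted p-values under 0.05. Slc44a2, a choline carrier-like protein that carries a neutrophil antigen in humans, was at 573 and 789 on the Hemangioblast arrays, against 429 and 525 on the hCD4 arrays (0.49, SE 0.209, adjusted p = 0.294). The bile acid carrier Slc10a2 had a change of 0.91 from a dim probe set (adjusted p = 0.304). Among the organic ion carriers Slc22a30 had the largest change (0.71, adjusted p = 0.371) and the carnitine carrier Slc22a5 was flat, at 134 and 125 on the Hemangioblast arrays, against 121 and 148 on the hCD4 arrays.

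The 5 nucleotide sugar and related carriers of the Golgi and endoplasmic reticulum changed by -0.23 to 0.33, with 0 calls and 0 unadjusted p-values under 0.05. Slc35a2, for UDP-galactose, had the largest change (0.33, adjusted p = 0.706), and Slc37a4, the glucose 6-phosphate carrier, the smallest p (0.28, adjusted p = 0.674). The 4 phosphate and sulfate carriers had 0 calls and no group that stood clear of the other. Slc20a1, a sodium-phosphate cotransporter, was at 673 and 536 on the Hemangioblast arrays, against 688 and 551 on the hCD4 arrays, and Slc34a2 was near the floor on all arrays (-0.48, adjusted p = 0.722, and 0.01 without Hemangioblast replicate 1). Slc66a2, in no class here, had a change of 0.48 (adjusted p = 0.378). Of the members that are not carriers, the scaffold Slc9a3r2 had a change of 0.61 (adjusted p = 0.459) and Slc9a3r1 of -0.01.

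More than 1 probe set was present for 26 member genes, and 31 probe sets were not the brightest of their gene. In 16 of these genes all probe sets had changes of one sign, and in 10 the signs differed. Of the 31 further probe sets 2 passed the threshold, those of Slc7a6 (lower) and Slc6a4 (higher). Counted as probe sets, 6 of 168 therefore passed, where 4.48% of all probe sets did (2.91% higher and 1.56% lower).

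**Figure D3:**
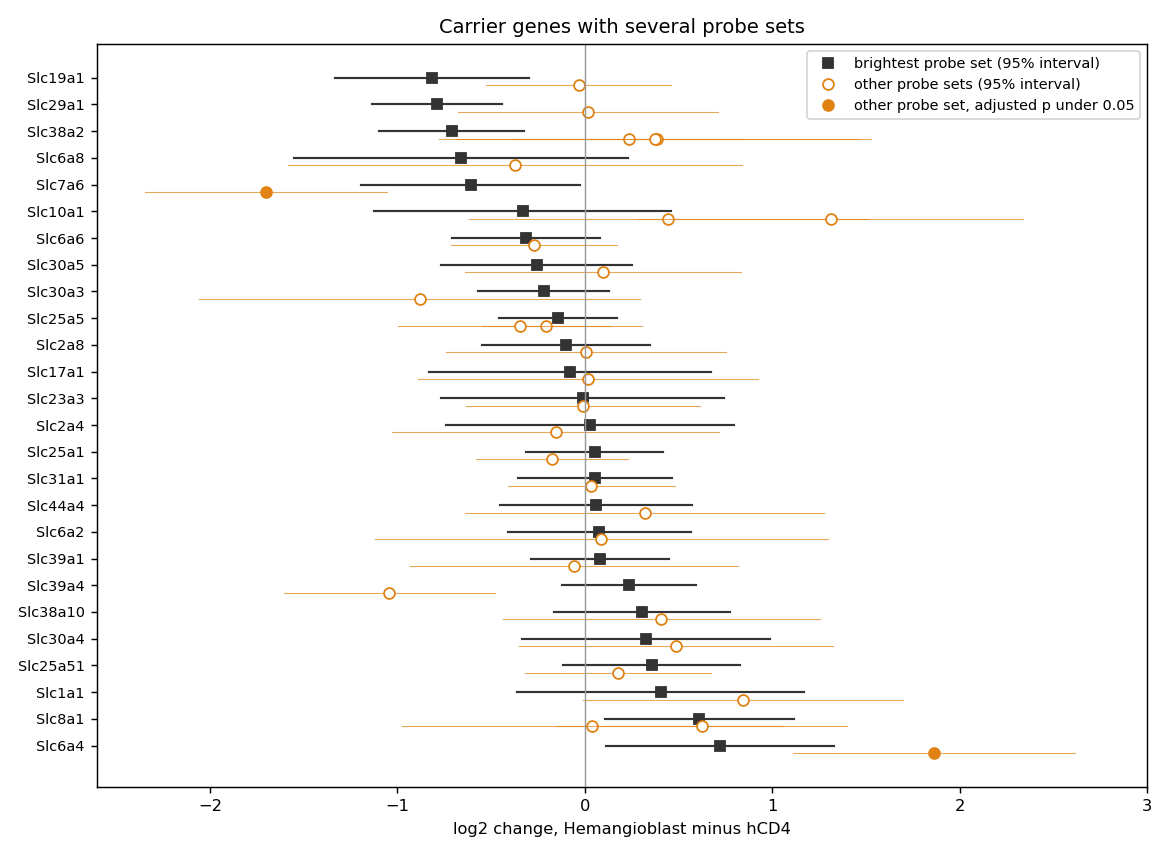
Log2 changes (Hemangioblast minus hCD4, horizontal axis) of the 26 genes with several probe sets, with 95% intervals; squares are the brightest probe set and circles the others, filled where the adjusted p was under 0.05. The 2 filled circles, Slc7a6 at -1.70 and Slc6a4 at 1.86, lie farther out than the square of the same gene, while for Slc38a2 and Slc39a4 the probe sets lie on opposite sides of 0.

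Genes that work with the carriers were described from lists. Of 11 measured genes of the sodium pump and its partners, 2 rose and 0 fell (3.43% and 1.95% of all genes). These were Atp1b3, a beta subunit of the pump, at 3938 and 3613 on the Hemangioblast arrays, against 2344 and 2183 on the hCD4 arrays (log2 change 0.73, SE 0.139, adjusted p = 0.0236), and Fxyd5, a pump modulator, at 319 and 281 on the Hemangioblast arrays, against 65.7 and 44.1 on the hCD4 arrays (2.17, SE 0.291, adjusted p = 0.0047). At an unadjusted p under 0.05 there were 2 higher and 2 lower of the 11. Nearest to the threshold without passing was Sgk1, at 608 and 432 on the Hemangioblast arrays, against 1085 and 740 on the hCD4 arrays. Its log2 change was -0.79 (adjusted p = 0.125). Stk39 and Wnk1, kinases that act on Slc12 cotransporters, had changes of -0.72 (adjusted p = 0.269) and 0.11 (adjusted p = 0.852).

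In the list of the amino acid response and mTORC1, 3 of 20 measured genes rose and 0 fell (3.43% and 1.95% of all genes). The transcription factor genes Cebpb (1.93, adjusted p = 0.00585) and Atf3 (0.74, adjusted p = 0.0352) and the mTORC1 inhibitor gene Sesn1 (1.29, adjusted p = 0.021) were these. Atf4, which drives the response to amino acid shortage, was at 1749 and 1503 on the Hemangioblast arrays, against 1596 and 1493 on the hCD4 arrays (0.07). Its target Asns, asparagine synthetase, was at 1372 and 1516 on the Hemangioblast arrays, against 1632 and 1643 on the hCD4 arrays (-0.18, adjusted p = 0.636). Of the 20 genes, 8 stood higher without overlap and 4 lower, 60% in all, beside 46.6% of all genes. Those that stood higher but did not pass included Ddit3, on a dim probe set (1.45, adjusted p = 0.0709), and Tsc1 (0.61, 0.171). The others were Lamtor3 (0.47, 0.195), Atf5 (0.72, 0.405) and Trib3 (0.40, 0.473). Beside Asns, the genes that stood lower were Rraga (-0.95, 0.26), Eif4ebp1 (-0.27, 0.564) and Tsc2 (-0.15, 0.751). Ddit4 (-0.27), Psat1 (-0.22) and Vldlr (-0.13) had overlapping arrays. In the promoter windows, the amino acid response element TGATGNAAN on either strand was found for 5 of 113 members (4.42%), 2 of them among 18 amino acid carriers, beside 2.15% of genes on the array and 3.51% of all promoters.

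Of 7 other genes of GABA, glutamate and amine handling beside Slc32a1, none passed, and Gabarap, a trafficking protein for GABA receptors and autophagy, was nearest (0.89, adjusted p = 0.0514). In the zinc and copper list 0 of 10 passed, with 1 unadjusted p under 0.05, that of the copper chaperone gene Cox17 (0.45, adjusted p = 0.244), and the metallothionein genes Mt1 and Mt2 had changes of 0.34 and 0.01. Of 10 acid and base genes 0 rose and 1 fell (3.43% and 1.95% of all genes). The gene that fell was the membrane carbonic anhydrase gene Car4, at 365 and 414 on the Hemangioblast arrays, against 666 and 683 on the hCD4 arrays (-0.77, SE 0.172, adjusted p = 0.0463). At an unadjusted p under 0.05 there were 2 higher and 3 lower of the 10. Larger changes that did not pass went both ways: Car14 (-1.31, adjusted p = 0.0721), Car8 (1.16, 0.0979) and Car3 (-0.98, 0.127). The ABC and Slco families had 28 genes, among them Abce1, Abcf1, Abcf2 and Abcf3, which act in translation and are no carriers. Of the 28 genes 1 rose (3.57%, beside 3.43% of all genes) and 0 fell. The gene that rose was the cholesterol exporter gene Abca1, at 217 and 329 on the Hemangioblast arrays, against 18.9 and 21.1 on the hCD4 arrays (2.98, SE 0.332, adjusted p = 0.00179). Among the carriers that the rule left out, 5 were measured, of which 2 rose and 1 fell (3.43% and 1.95% of all genes). The macrophage metal carrier Slc11a1 (1.56, adjusted p = 0.0242) and the red cell anion exchanger Slc4a1 (1.23, adjusted p = 0.0175) rose, and the glucose carrier Slc2a3 fell (-1.05, adjusted p = 0.0115). Slc2a1 (-0.22, adjusted p = 0.592) and Slc11a2 (-0.06, adjusted p = 0.943) did not pass.

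**Figure D4:**
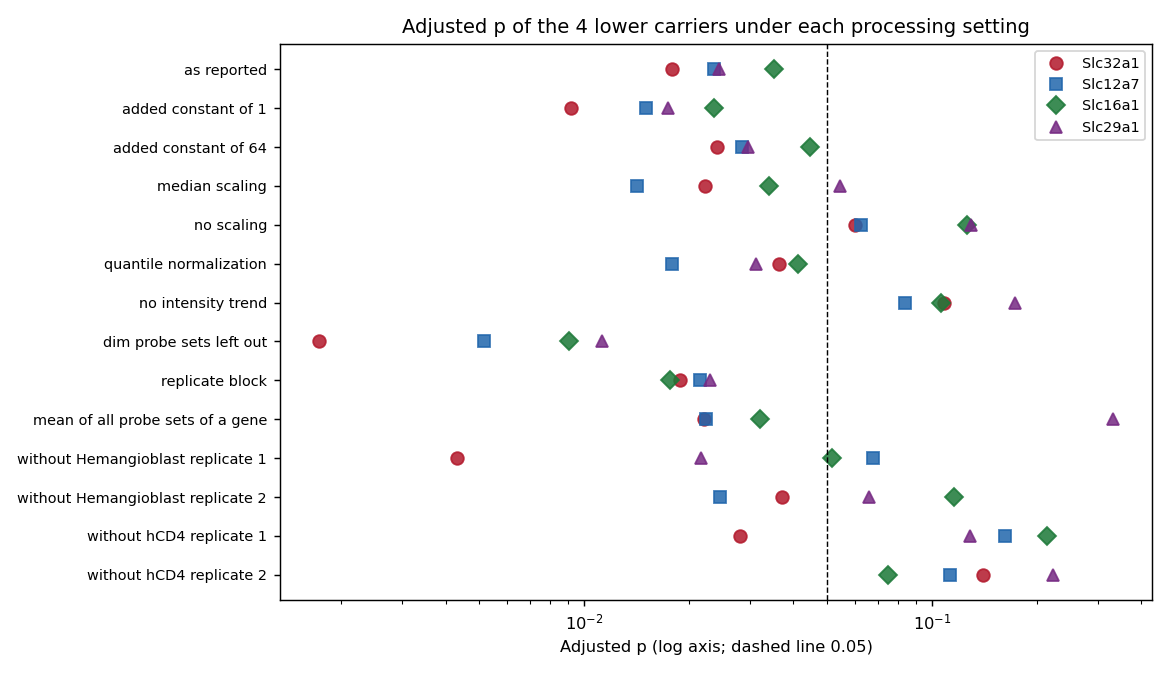
Adjusted p of the 4 genes that fell (log axis) under the reported processing and 13 alternatives (vertical axis), with a dashed line at 0.05. All 4 lie right of the line without scaling and without an intensity trend, and Slc32a1 lies left of it in 3 of the 4 settings that leave out 1 array.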

How the data were processed

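RNA from 4 samples was hybridised to single-colour arrays, 1 per sample (20 ug of biotin-labelled RNA without amplification, per the labels). The deposited values are linear intensities, 1 for each probe set on each array. How the authors corrected background or scaled them, and with which software, the labels used here do not say. All 4 value columns were used. The 66 array controls were left out, and each array was scaled to the mean of the arrays' means trimmed by 2% at each end (factors 0.939 and 1.05 for Hemangioblast, 0.936 and 1.09 for hCD4). Log2(intensity + 16) was compared with limma 3.58.1 in R 4.3.3 (eBayes with an intensity trend, 2 residual and 6.18 prior degrees of freedom), two-sided, adjusted by Benjamini-Hochberg over 12422 probe sets, with a threshold of 0.05. An exact permutation test of 2 against 2 arrays cannot go below p = 0.333, so none was used. Precision is limited by the number of arrays (median SE 0.27).

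Genes were named from the platform annotation (10833 probe sets with 1 symbol, 396 with several, 1193 with none), and sequences are from RefSeq. Slc6a20b was classed with the amino acid carriers, as a numbered carrier with a letter. Members, classes and lists were chosen with earlier results of these data known. The text names every member past the threshold by any probe set, those at least 2-fold apart in all array pairs, and in each class the members with the smallest adjusted p and the largest change; other members, and the motifs, were picked after their values or sequences were seen. Alternatives were the added constant (1 or 64), median, quantile or no scaling, no trend, dim probe sets left out, averaged probe sets, a replicate block, and each array left out. Python 3.11.15 and matplotlib 3.10.9 made the plots.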

Additional observations from a re-analysis of the deposited data

How the results depend on the processing

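With 4 solute carrier genes lower and 0 higher as reported, the lower count was 0 without scaling, 0 without an intensity trend and 8 with dim probe sets left out, the additions being Slc12a2, Slc19a1, Slc38a2 and Slc7a7. With the probe sets of a gene averaged, 1 gene was higher (Slc6a4) and 4 were lower. Leaving out 1 array gave 1 to 3 lower and 0 higher. Slc32a1 was the gene that passed without hCD4 replicate 1 and Slc7a7 the one that passed without hCD4 replicate 2. For the 2-fold rule (0 higher, 2 lower), 1 gene was higher with an added constant of 1 or with averaged probe sets, 1 was lower with a constant of 64 or without scaling, and leaving out 1 array gave 0 to 1 higher and 2 to 4 lower. Over all probe sets (362 higher, 194 lower) the counts were 222 and 50 without scaling, 188 and 32 without a trend, 318 lower with dim probe sets left out, and 170 to 283 higher and 42 to 234 lower with 1 array left out. The cause of these differences was not tested.

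With the replicate number as a block 7 members were lower and 0 higher, adding Slc12a2, Slc38a2 and Slc7a7. Deviations of same-numbered arrays from their group means correlated at -0.0078, which does not show a pairing. Both replicate 1 arrays had higher 3′ to 5′ signal ratios than the replicate 2 array of their group, however. For actin these were 1.63 and 1.16 on the Hemangioblast arrays, against 1.36 and 1.12 on the hCD4 arrays (replicate 1 first), and for Gapdh 1.33 and 1.03 on the Hemangioblast arrays, against 1.13 and 1.03 on the hCD4 arrays. The scale factors were also lower on both replicate 1 arrays. The part of RNA quality in the results was not tested.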
